A study of Mus musculus with 8 samples.

Results

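The genes described here are 10 members of the NF-kB system, of 30175 gene names on the array: the 5 transcription factors Nfkb1, Nfkb2, Rel, Rela and Relb, their inhibitors Nfkbia, Nfkbib and Nfkbie, the adaptor Traf2 and the kinase Ikbkb. Every array probe that the scanner files name for one of these genes was taken, which gave 16 probes of 39429, each read by 1 spot and each treated separately. They were compared between male mice labelled Brd2+/-, heterozygous for a gene-trap vector inserted into Brd2, and wildtype males. Both groups were adult C57Bl/6j mice from matings between heterozygotes, at generation 7 of a backcross that the labels put at 99% C57Bl/6J on average. RNA of 4 heterozygous and 4 wildtype mice, from tissue labelled prefrontal cortex striatum and called striatum here, was hybridised to 4 two-colour Agilent arrays. Each array carried 2 mice of the same genotype. Replicates 1 and 2 shared an array and so did replicates 3 and 4, with replicates 1 and 3 labelled Cy3 and replicates 2 and 4 labelled Cy5. The arrays share 1 slide and 1 scan, and the heterozygous arrays occupied positions 2 and 1 and the wildtype arrays positions 4 and 3, so the side of the slide and the genotype cannot be told apart.

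NF-kB factors are dimers of Rel-family proteins that bind kB sites in DNA. In resting cells they are held in the cytoplasm by IkB proteins. Signals from cytokine receptors pass through adaptors such as TRAF2 to the IKK kinase, which phosphorylates IkB and so triggers its destruction. The freed dimers then enter the nucleus and switch on inflammatory and survival genes, among them the genes for IkB proteins, which closes a feedback loop. In the striatum both glia and neurons use the pathway. BRD2 is a BET protein that binds acetylated histones at active genes.

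The probes on which the results turn are 60 bases long, and coordinates are those of the files, on mm9. The Nfkbia probe, A_51_P295192 (chr12:56590945-56591440, minus strand), covers 496 bases of genome, so its ends lie in different exons. Nfkbib A_66_P120882 (chr7:29545252-29546647, minus strand) covers 1396 bases and also joins exons, while Nfkbib A_55_P1989733 (chr7:29544160-29544219, minus strand) is unbroken on the genome. Of the Traf2 probes, A_55_P2092963 lies at chr2:25374386-25374445 and A_55_P2092958 at chr2:25373541-25373600, both on the minus strand. The first 3 lines below give whole probes. They are shown because these had the largest differences between genotypes among the inhibitors' probes, Nfkbia and Nfkbib in opposite directions. The other lines give the last 30 bases of the Traf2 probes, which disagreed with each other. Capitals mark a polyadenylation-type hexamer, AATAAA or ATTAAA.
Nfkbia A_51_P295192: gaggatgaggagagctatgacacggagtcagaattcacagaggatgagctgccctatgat
Nfkbib A_55_P1989733: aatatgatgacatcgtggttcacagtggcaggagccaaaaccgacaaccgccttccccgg
Nfkbib A_66_P120882: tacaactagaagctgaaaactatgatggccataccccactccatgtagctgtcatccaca
Traf2 A_55_P2092963, last bases: gggggagaagtgATTAAAtgttgagatgtc
Traf2 A_55_P2092958, last bases: attgcccatttctgtccgttttttctactt

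The hexamer occurred in 5 of the 16 NF-kB probes, against 16.7% of all probes on the array. The Traf2 probe that carries it lies 845 bases upstream of the other Traf2 probe in the same transcript.

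Between 16398 (heterozygous replicate 3) and 24867 (heterozygous replicate 2) probes stood well above background in a sample, and no spot was saturated. The median spot was 3.72 to 10.5 times its local background, lower in each Cy5 sample than in any Cy3 sample. Samples of the same array correlated at 0.986 to 0.989 over probes, and samples of different arrays at 0.925 to 0.959. The sample description names heart left atrium where the tissue label names prefrontal cortex striatum. All 9 striatal projection neuron markers with a probe were well above background in every sample, and of 8 atrial heart muscle markers 1 (Myl4) was above it in every sample and 3 (Myl7, Actc1 and Nppb) in none, with Nppa above it in 7 of 8 samples. Brd2 itself read 11.74 ± 0.07 in heterozygous and 11.46 ± 0.64 in wildtype striatum on probe A_55_P1958678 (log2 intensity, SD, n = 4 each), a difference of 0.28 (SE 0.35) that became −0.27 when wildtype replicates 1 and 2 were left out. Its second probe, A_55_P1953545, differed by 0.88 (SE 0.28, adjusted p = 0.50). Neither probe was lower in the samples labelled heterozygous, so the targeted gene does not check the labels. The sources used here do not say whether these probes lie beyond the trap.

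None of the NF-kB probes passed the test. Values are normalised log2 intensities, differences are heterozygous minus wildtype on the log2 scale, and limma's test of all probes with the array as a random block was adjusted over 18399 probes. Of the 16 NF-kB probes, 14 were well above background in at least 4 samples and 12 had a usable value in all 8 samples and were tested. At an adjusted p of 0.05, limma called 0 of these 12 probes and 0% of all probes, and the lowest adjusted p in the family was 0.493. At an unadjusted p under 0.05 there was 1 of 12, a Traf2 probe, against 8.05% of all probes tested (3.83% higher and 4.22% lower in heterozygous mice). The genotypes did not overlap in 2 of 12, the Traf2 probe above and a Relb probe below, against 17% of all probes tested (7.86% higher and 9.1% lower in heterozygous mice). The 12 probes had a median difference of 0.155, with 8 higher and 4 lower, beside a median of −0.022 over all probes tested. That median turned to −0.064 when wildtype replicates 3 and 4 were left out.

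**Figure D1:**
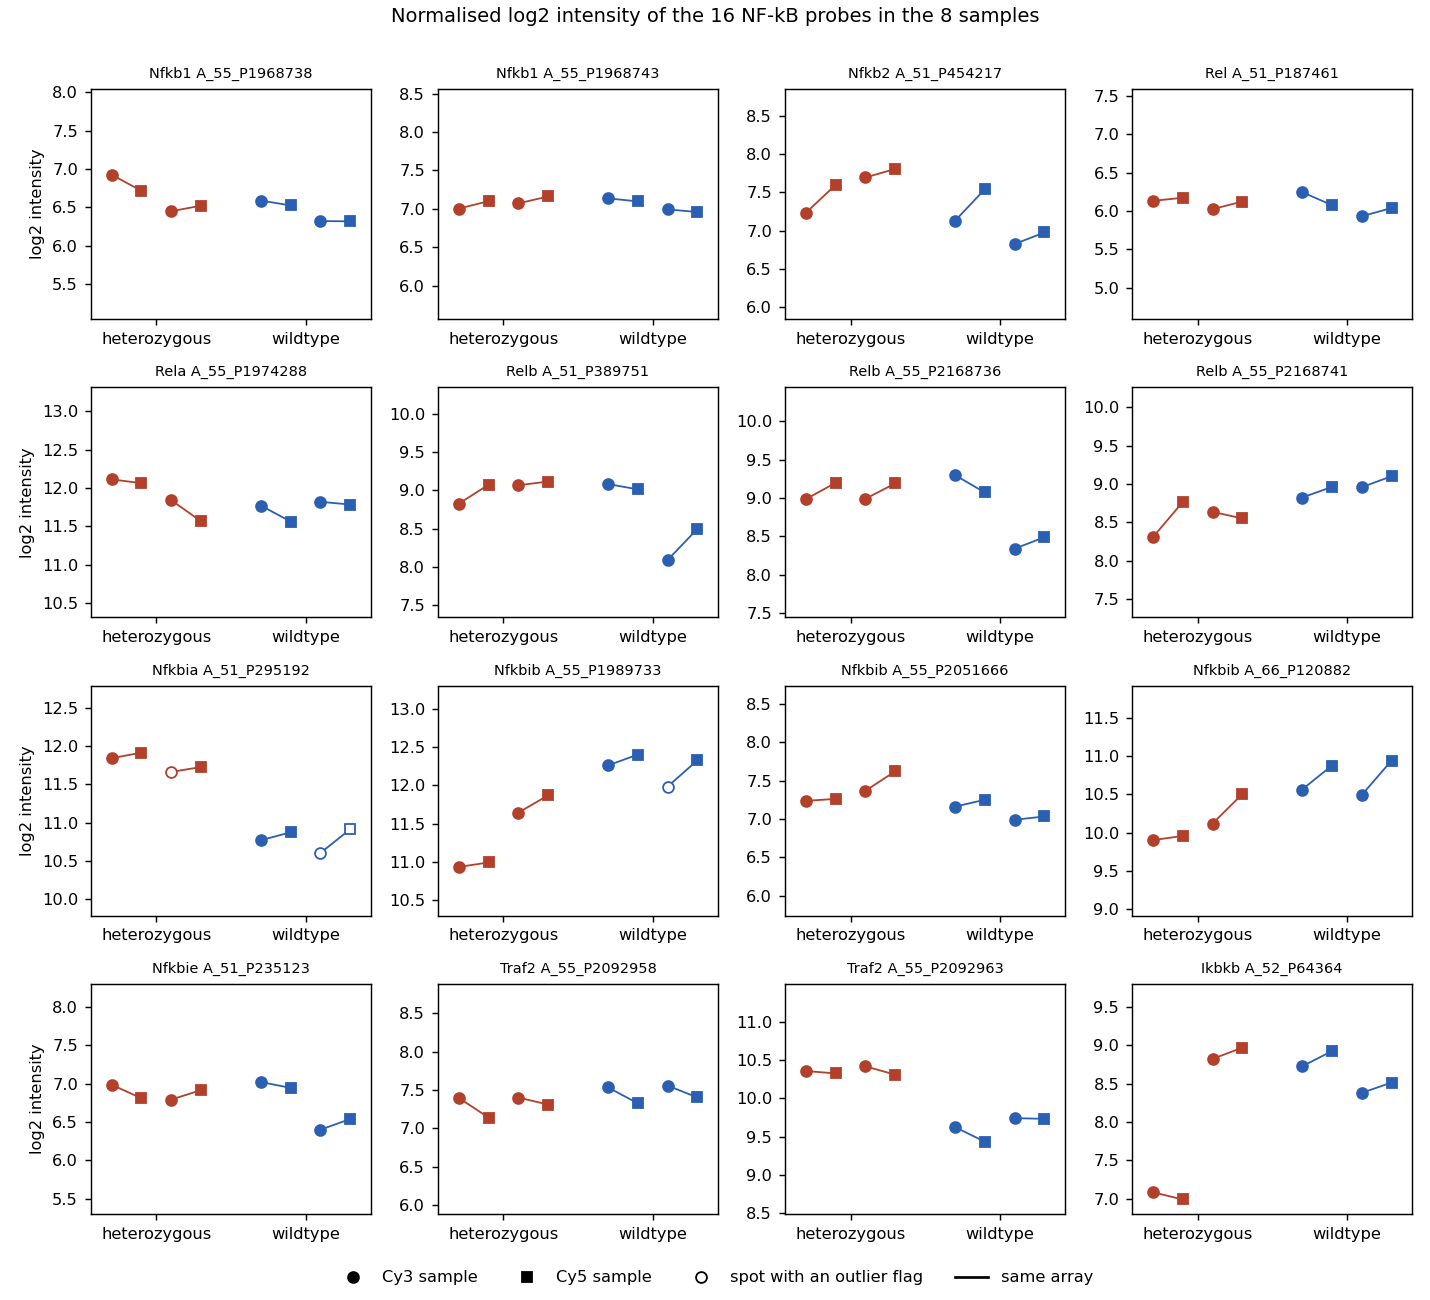
Normalised log2 intensity (vertical axis, the same span of values in every panel) of the 16 NF-kB probes in the 4 heterozygous samples (left) and the 4 wildtype samples (right). Circles are Cy3 and squares Cy5 samples, lines join samples of 1 array, and open symbols are spots with an outlier flag; the heterozygous samples lie wholly above the wildtype samples for Nfkbia and 1 Traf2 probe, and for Ikbkb 1 heterozygous array lies far below the other.

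Nfkbia, which encodes IkBα, the inhibitor that NF-kB itself induces, had the widest gap between genotypes among the NF-kB probes. It read 11.84, 11.91, 11.66 and 11.73 in heterozygous replicates 1 to 4, against 10.77, 10.88, 10.61 and 10.92 in wildtype replicates 1 to 4. Every heterozygous sample lay above every wildtype sample, and both heterozygous arrays lay above both wildtype arrays. The spots of heterozygous replicate 3 and of wildtype replicates 3 and 4 carried the scanner's flag for uneven pixels, so the probe was left out of the test. With flagged spots kept, the difference was 0.99 (SE 0.25, 95% interval 0.44 to 1.55), a fold of 1.99, and limma's fit across all probes gave an adjusted p of 0.323. A two-sided exact permutation test, which shuffled the samples without regard to their arrays, gave p = 0.0286, the smallest that 4 against 4 allows. Any probe without overlap between genotypes gets this p, so it only restates the gap. Over all probes tested, 17% had no overlap. With arrays as the unit, 2 against 2 cannot go below 0.333. The difference was 1.06 in the Cy3 samples and 0.92 in the Cy5 samples. It was 0.65 from the scanner software's processed signals.

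Nfkbib, which encodes IkBβ, a second cytoplasmic inhibitor, had 3 probes that did not run the same way. Probe A_55_P1989733 read 10.93, 10.99, 11.64 and 11.87 in heterozygous replicates, against 12.26, 12.40, 11.98 and 12.33 in wildtype replicates. All heterozygous samples lay below all wildtype samples, but the heterozygous arrays differed, by −0.79 for replicates 1 and 2 minus replicates 3 and 4. The spot of wildtype replicate 3 carried an outlier flag, which kept this probe out of the test too. With that spot kept, the difference was −0.88 (SE 0.31, adjusted p = 0.447), and it was −0.49 from heterozygous replicates 3 and 4 alone against the wildtype mice and −1.28 from heterozygous replicates 1 and 2 alone.

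Nfkbib probe A_66_P120882, which was tested, read 9.90, 9.96, 10.12 and 10.50 in heterozygous replicates, against 10.56, 10.87, 10.49 and 10.94 in wildtype replicates. The genotypes touched only through heterozygous replicate 4, which lay just above wildtype replicate 3. The difference was −0.60 (SE 0.27, 95% interval −1.22 to 0.024), with an unadjusted p of 0.058 and an adjusted p of 0.642. The third probe, A_55_P2051666 (chr7:29543270-29543329), lies further along the same transcript and was above background in 3 samples of each genotype. It read 7.24 to 7.62 in heterozygous and 6.99 to 7.25 in wildtype mice, with a difference of 0.26 (SE 0.24, adjusted p = 0.88). This sign opposes that of the other 2 Nfkbib probes.

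Nfkbie encodes IkBε, another inhibitor of the family. Its probe, A_51_P235123, was above background in 3 heterozygous samples and 1 wildtype sample. It read 6.79 to 6.98 in heterozygous and 6.40 to 7.02 in wildtype mice, with a difference of 0.15 (SE 0.28, adjusted p = 0.96). The wildtype range held the heterozygous range whole.

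Among the signalling genes, Traf2, the adaptor that carries TNF receptor signals towards IKK, had 1 probe with a gap between genotypes and 1 without. Probe A_55_P2092963 read 10.35, 10.32, 10.42 and 10.31 in heterozygous replicates, against 9.62, 9.43, 9.74 and 9.73 in wildtype replicates. The 4 heterozygous values lay close together, and all lay above the wildtype values. The means were 10.35 ± 0.048 in heterozygous and 9.63 ± 0.14 in wildtype mice (SD, n = 4 each), a difference of 0.72 (SE 0.23, 95% interval 0.21 to 1.23). Its unadjusted p was 0.011, and its adjusted p was 0.493. The fit that ignored the array gave an adjusted p of 0.0364, and the range over all alternatives was 0.0364 to 0.999. The difference was 0.35 from the scanner software's processed signals.

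Traf2 probe A_55_P2092958 read 7.40, 7.14, 7.40 and 7.31 in heterozygous replicates, against 7.53, 7.33, 7.56 and 7.40 in wildtype replicates. The genotypes overlapped, and the difference was −0.14 (SE 0.22, 95% interval −0.64 to 0.35, adjusted p = 0.94). The interval of this probe and that of A_55_P2092963 overlap between 0.21 and 0.35, and the difference between the probes was not tested.

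Ikbkb, which encodes IKKβ, the kinase that marks IkBα for destruction, split by array within the heterozygous mice. It read 7.09 and 6.99 in heterozygous replicates 1 and 2 and 8.82 and 8.97 in heterozygous replicates 3 and 4, against 8.73, 8.93, 8.38 and 8.52 in wildtype replicates. The heterozygous arrays differed by −1.86 (replicates 1 and 2 minus 3 and 4), while the wildtype arrays differed by 0.38. The difference between genotypes was −0.67 (SE 0.51, adjusted p = 0.83), and with only heterozygous replicates 3 and 4 against the wildtype mice it was 0.26. The direction of Ikbkb therefore rests on 1 array.

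**Figure D2:**
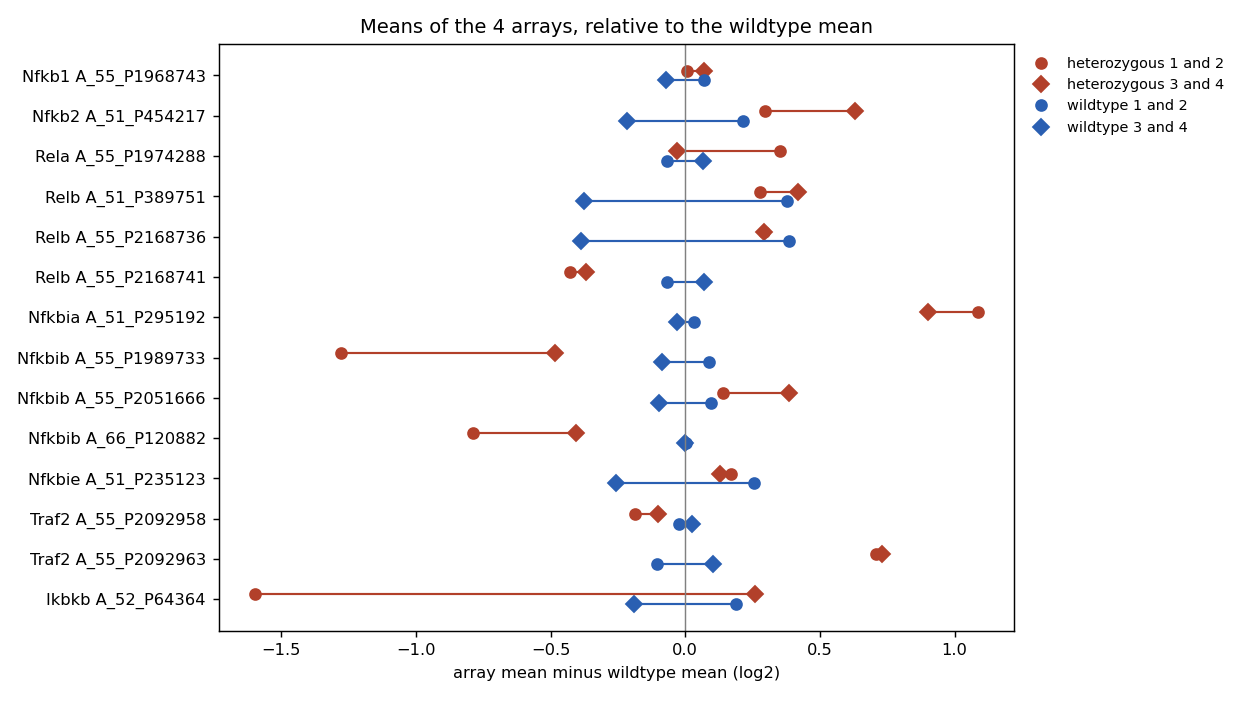
Mean log2 intensity of each array minus the mean of the wildtype samples (horizontal axis) for the 14 NF-kB probes well above background in at least 4 samples, flagged spots included. Heterozygous arrays are drawn above wildtype arrays, circles stand for the array of replicates 1 and 2 and diamonds for that of replicates 3 and 4; the heterozygous arrays of Traf2 A_55_P2092963 coincide near 0.72, and those of Ikbkb lie far apart, at array means of 7.04 and 8.90.

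No probe of the 5 transcription factors passed the test. Nfkb2, the p100 precursor of p52 in the alternative pathway, had the largest difference in mean among the factors' probes, though its genotypes overlapped. It read 7.23, 7.60, 7.69 and 7.81 in heterozygous replicates, against 7.13, 7.54, 6.83 and 6.98 in wildtype replicates. Heterozygous replicates 2, 3 and 4 lay above all wildtype values, and the difference was 0.46 (SE 0.28, 95% interval −0.17 to 1.096, adjusted p = 0.759). The probe was dim, above background in 3 samples of each genotype. Its difference was 0.16 from the scanner software's processed signals.

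Relb, the partner of p52, had 3 probes. A_51_P389751 and A_55_P2168736 share 9 bases at their ends (chr7:20191722-20191781 and chr7:20191773-20191832, minus strand) and are not independent readings. A_51_P389751 read 8.82, 9.07, 9.07 and 9.11 in heterozygous replicates, against 9.08, 9.01, 8.09 and 8.50 in wildtype replicates. A_55_P2168736 read 8.98, 9.20, 8.99 and 9.19 in heterozygous replicates, against 9.30, 9.07, 8.34 and 8.49 in wildtype replicates. On both probes the array of wildtype replicates 3 and 4 was low and that of wildtype replicates 1 and 2 was at the heterozygous level. Their differences of 0.35 (SE 0.33) and 0.29 (SE 0.33) became −0.028 and −0.095 when the low wildtype array was left out. Adjusted p-values were 0.892 and 0.921.

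The third Relb probe, A_55_P2168741 (chr7:20203058-20203117), is assigned by the file to another transcript of the gene. It read 8.31, 8.77, 8.64 and 8.55 in heterozygous replicates, against 8.82, 8.96, 8.96 and 9.10 in wildtype replicates. The heterozygous samples all lay below the wildtype samples, with a difference of −0.40 (SE 0.29, 95% interval −1.05 to 0.26) and an adjusted p of 0.818. The Relb probes therefore ran in opposite directions, none of them past the test.

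Rela, the p65 subunit of the main NF-kB dimer, read 12.11, 12.06, 11.84 and 11.56 in heterozygous replicates, against 11.77, 11.56, 11.82 and 11.78 in wildtype replicates. The genotypes overlapped, and the difference was 0.16 (SE 0.25, 95% interval −0.41 to 0.73, adjusted p = 0.947). Nfkb1, the p105 precursor of p50, read 7.00 to 7.16 in heterozygous and 6.96 to 7.14 in wildtype mice on probe A_55_P1968743, above background in 3 samples of each. Its difference was 0.038 (SE 0.22, 95% interval −0.46 to 0.54, adjusted p = 0.99). The second Nfkb1 probe, A_55_P1968738, was well above background in 1 heterozygous sample and no wildtype sample. Rel, which encodes c-Rel, a subunit best known from lymphocytes, was well above background in 0 of 8 samples. It read 6.02 to 6.17 in heterozygous and 5.93 to 6.25 in wildtype mice. Its probe, A_51_P187461, is 60 bases long but is placed over only 15 bases of genome (chr11:23641729-23641743). Whether the low reading comes from the gene or from the probe was not tested. No fold is given for these 2 dim probes.

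**Figure D3:**
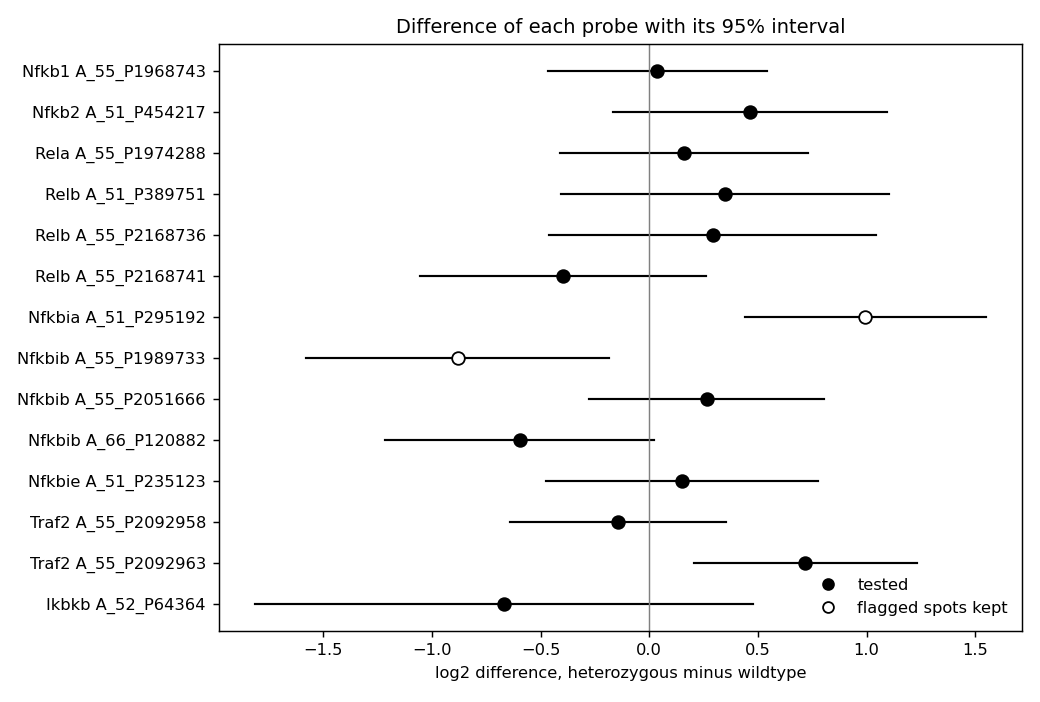
Log2 difference, heterozygous minus wildtype (horizontal axis), with its 95% interval for the 14 NF-kB probes well above background in at least 4 samples. Filled points were tested and open points, Nfkbia and Nfkbib A_55_P1989733, are from the fit that kept flagged spots; those 2 and Traf2 A_55_P2092963 have intervals that leave out 0 before adjustment for the number of probes.

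The differences between genotypes were set beside those between arrays of the same genotype. Over the 12 tested NF-kB probes the median size of the genotype difference was 0.320, and the median difference between arrays of the same genotype was 0.114 in heterozygous and 0.201 in wildtype mice. Over all probes tested these medians were 0.255, 0.315 and 0.352. The genotype difference was larger than both differences between arrays of the same genotype in 6 of the 12 NF-kB probes, against 22.6% of all probes tested. The 3 Relb, 2 Nfkbib and 2 Traf2 probes among the 12 share genes, so these are not independent counts.

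The plot of array means shows the other 6. For Ikbkb, Rela, Nfkbie, Nfkb1 and both overlapping Relb probes, 2 arrays of the same genotype lay further apart than the genotypes did. For Nfkbia, by contrast, the heterozygous arrays were 0.18 apart and the wildtype arrays 0.062 apart.

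The members' promoters were read from RefSeq (GRCm38.p6), as windows from 250 bases before to 50 bases after a gene's start. Entries were found for 7 of the 10 genes, in 9 windows, since Nfkb2 has 3 starts and its last 2 windows overlap. The 10-base kB consensus was searched on both strands. It matched in 6 of the 9 windows and in 4 of the 7 genes, namely Nfkb2, Nfkbia, Nfkbie and Rel, against 8.46% of 32851 windows in the table. Nfkbia and Nfkb2 are shown as the inhibitor and the factor with the largest upward differences in heterozygous mice, with consensus matches in capitals. In the Nfkb2 window the first 2 matches overlap by 9 bases and form one run of capitals.
Nfkbia, chr12:55492598-55492897, minus strand: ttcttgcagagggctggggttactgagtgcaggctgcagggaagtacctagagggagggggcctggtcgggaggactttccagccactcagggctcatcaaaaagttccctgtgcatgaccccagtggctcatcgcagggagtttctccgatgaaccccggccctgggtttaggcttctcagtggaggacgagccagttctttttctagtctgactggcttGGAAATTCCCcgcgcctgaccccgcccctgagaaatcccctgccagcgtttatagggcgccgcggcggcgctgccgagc
Nfkb2, chr19:46304487-46304786, plus strand: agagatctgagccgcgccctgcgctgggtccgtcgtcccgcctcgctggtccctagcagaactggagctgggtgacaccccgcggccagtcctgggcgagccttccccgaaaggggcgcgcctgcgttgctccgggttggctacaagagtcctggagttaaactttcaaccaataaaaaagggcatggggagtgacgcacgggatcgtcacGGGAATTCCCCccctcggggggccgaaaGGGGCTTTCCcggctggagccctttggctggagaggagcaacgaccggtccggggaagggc

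A match describes letters in these windows and not a site bound by a factor. Nfkbib, Rela and Traf2 had no consensus match in their windows, which says only that the letters are not there. Of the 4 genes with a match, Rel was not well above background, and Nfkbie, at 0.15, and Nfkb2, at 0.46, did not pass the test. The remaining gene, Nfkbia, was left out of the test for flagged spots. With those spots kept it was at 0.99, with an adjusted p of 0.323 in limma's fit.

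Outside the 10 members, 70 genes of the pathway were examined in 6 lists, with the tested probe of highest mean standing for each gene. Of these, 69 had a probe and 40 were tested, and limma called 0 of 40, with 2 higher and 1 lower at an unadjusted p under 0.05. That compares with 8.13% of all 14996 genes tested. In all, 25 were higher and 15 lower in heterozygous mice, with a median of 0.094 beside −0.030 over all genes.

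Among the kinases of the IKK complex and upstream, 8 of 10 were tested and 6 were higher, with a median of 0.218. Tbk1, an IKK-related kinase of interferon signalling, read 9.62, 9.73, 9.21 and 9.42 in heterozygous replicates, against 8.94, 8.90, 8.44 and 8.39 in wildtype replicates. The genotypes did not overlap, and the difference was 0.83 (SE 0.28, adjusted p = 0.508), but 0.058 from the scanner software's processed signals. Map3k7, which encodes the IKK-activating kinase TAK1, had 0.83 (SE 0.35, adjusted p = 0.611) on its brightest probe and −0.49 and −1.20 on its other probes. On the brightest probe the wildtype arrays differed by 1.02, more than the genotypes did. The lowest difference for that probe over all alternatives was 0.32. Tab2, a partner of TAK1, had 0.73 (SE 0.38), and 0.117 when heterozygous replicates 1 and 2 were left out, so its size rests on 1 array. The 2 lower kinase-list genes are subunits of the IKK complex itself, named here after their values were seen. Chuk, which encodes IKKα, had −0.95 (SE 0.51, adjusted p = 0.707), and −0.39 when heterozygous replicates 1 and 2 were left out. Ikbkg, which encodes the regulatory subunit NEMO, had −0.38 (SE 0.24, adjusted p = 0.783).

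Of the other inhibitors of the IkB family, 2 of 4 were tested. Nfkbil1, an IkB-like gene, read 10.66, 10.50, 10.14 and 10.14 in heterozygous replicates, against 10.92, 11.10, 11.11 and 11.17 in wildtype replicates. All heterozygous samples lay below all wildtype samples, with a difference of −0.71 (SE 0.27, adjusted p = 0.55). Nfkbid, a nuclear IkB protein, had 0.12 (SE 0.49).

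Of the adaptors and ubiquitin ligases 9 of 17 were tested, with 5 higher, 4 lower and a median of 0.021. Rnf31, the catalytic subunit of the linear ubiquitin ligase, had 0.45 (SE 0.22), and its genotypes did not overlap. A second Rnf31 probe, left out of the test for flagged spots, had 0.88. Birc2, which encodes the ubiquitin ligase cIAP1 that binds TRAF2, had −0.70 (SE 0.38). Its genotypes were only just apart, with heterozygous replicate 3 at 10.0032 and the lowest wildtype sample at 10.0165. Over all probes tested, 17% had no overlap. Irak1, a kinase of interleukin-1 and Toll-like receptor signalling, had −0.25 on its brightest tested probe and 0.37 on another.

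Of the receptors 6 of 10 were tested, with a median of 0.052, among them Ltbr, the lymphotoxin receptor, at 0.23, Il1rap, the interleukin-1 co-receptor, at −0.25 (0.14 on another probe), and Tnfrsf11a, which encodes RANK, at −0.16. Of the deubiquitinases and other brakes 8 of 9 were tested, with 4 higher and 4 lower and a median of −0.104. Tnip1, a partner of the deubiquitinase A20, had 0.28 and Pdlim2, which promotes removal of nuclear RelA, had 0.42. Pias1, a SUMO ligase, had −0.36 on its brightest probe and 1.09 and 0.32 on the others. None of these had an adjusted p below the threshold.

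Many targets of NF-kB were too dim to compare. Of 19 target genes with a probe, 9 were above background in no sample, namely Ccl2, Cxcl1, Cxcl2, Cxcl10, Icam1, Il1b, Tnf, Il6 and Mmp9, which encode chemokines, cytokines, an adhesion protein and a protease. The 7 tested targets had a median of 0.294, with 5 higher and 2 lower. Irf1, an interferon-pathway transcription factor, had 0.40 (SE 0.33) with no overlap between genotypes, and Gadd45b, a stress-response gene, had 0.66 (SE 0.42). Junb, an AP-1 factor, had 0.67 (SE 0.62). None of the 7 passed the test, and Gadd45b was at −0.022 when wildtype replicates 3 and 4 were left out.

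**Figure D4:**
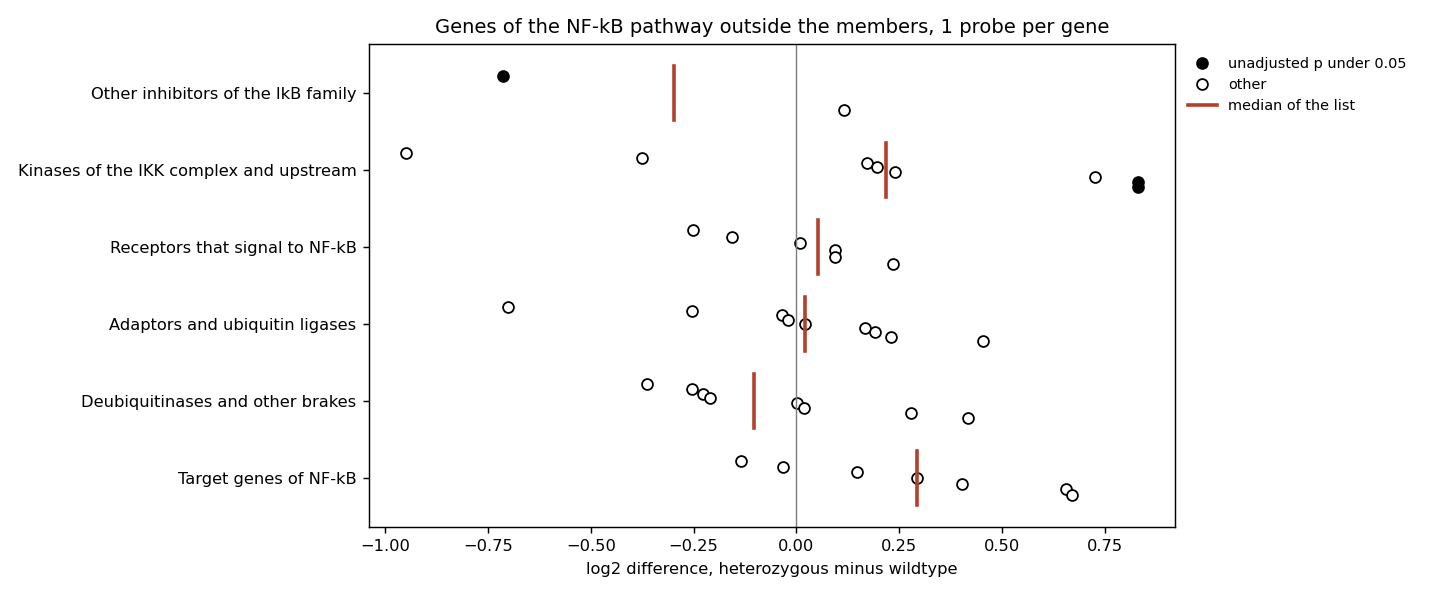
Log2 difference, heterozygous minus wildtype (horizontal axis), of the 40 tested pathway genes outside the 10 members, 1 probe per gene, by list. Filled points had an unadjusted p under 0.05 (Tbk1 and Map3k7 on the right, Nfkbil1 on the left), open points did not, and the red bar is the median of the list, between −0.299 and 0.294.

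Marker levels of several cell types stood apart between genotypes, and in bulk tissue more cells of a type and more RNA per cell cannot be told apart. Each list's level is the sum of linear intensities over the brightest probe of each marker, flagged spots kept. The brightest markers therefore weigh most, and the sums were not tested. The 12 microglial markers, all above background in every sample, summed to 82575 to 91510 in heterozygous and 75640 to 86269 in wildtype mice, which overlap. Of the 10 tested, 6 were higher and 4 lower, with a median of 0.068. C1qa, a complement gene of microglia, had 0.56 (SE 0.23, adjusted p = 0.60).

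The pericyte and smooth muscle markers, of which 5 of 6 were above background in every sample, summed to 7393 to 8511 in heterozygous and 6174 to 6941 in wildtype mice. Of the 5 tested, 4 were higher and 1 lower, with a median of 0.230. Rgs5, a pericyte gene, had 1.40 (SE 0.39) and Pdgfrb, the pericyte receptor, had 0.88 (SE 0.27), neither past the test. The 8 endothelial markers overlapped between genotypes, at 14958 to 21967 in heterozygous and 14911 to 23377 in wildtype mice. Of the 7 tested, 5 were higher and 2 lower, with a median of 0.388. Within that list Cldn5, a tight junction gene, had −1.07 and Abcb1a, an efflux pump of the blood-brain barrier, had 0.78 (SE 0.26), which was −0.27 from processed signals.

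Among the remaining lists, the 7 oligodendrocyte markers summed to 144325 to 205418 in heterozygous and 88105 to 115758 in wildtype mice, without overlap. Of the 5 tested by limma, 3 were higher and 2 lower, with a lowest adjusted p of 0.62. The 9 striatal projection neuron markers summed to 294279 to 421078 in heterozygous and 127357 to 286939 in wildtype mice, also without overlap. Of the 6 tested, 5 were higher and 1 lower, with a lowest adjusted p of 0.795. The cortical excitatory neuron markers, of which 3 of 7 were above background in every sample, summed to 1274 to 2595 in heterozygous and 2363 to 14281 in wildtype mice. These ranges overlap, and the wildtype range is wide. Of the 6 tested, 0 were higher and 6 lower, with a median of −0.939 and a lowest adjusted p of 0.756. The 8 atrial heart muscle markers, of which 1 was above background in every sample, also summed without overlap. Their sums were 1138 to 1454 in heterozygous and 1575 to 4854 in wildtype mice, and of the 3 tested, 0 were higher and 3 lower. Sums without overlap were therefore not confined to cell types of the striatum. The part of these cell types in the values of Nfkbia, Traf2 and the other members was not tested.

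The genes whose pattern over the 8 samples was nearest to that of Nfkbia, after each probe was centred on its own mean and flagged spots were kept, were Plcl1, Bean1 and Arid1b. They were found among 17320 named probes by the root mean square difference over samples, which was 0.086 for Plcl1, 0.097 for Bean1 and 0.103 for Arid1b, beside 0.509 for the spread of Nfkbia around its mean. Arid1b encodes a subunit of the BAF chromatin remodelling complex. Plcl1 averaged 8.03 in heterozygous and 6.99 in wildtype mice. Bean1 averaged 7.96 in heterozygous and 7.10 in wildtype mice, and Arid1b 10.25 in heterozygous and 9.30 in wildtype mice. With 8 samples that fall into 2 groups, likeness to Nfkbia is mostly a gap between genotypes of the same size, and it is given as a description with no test.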

How the data were processed

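Striatal RNA of 8 mice was measured on 4 two-colour arrays. The deposited scanner files hold the raw intensity of each spot and of its local background in both channels, read by Agilent Feature Extraction 11.0.1.1, per the file headers. The authors' deposited value table is a ratio on a linear scale: background-subtracted median signal over the median of its column. This was found by matching it to the scanner values (100% equal within 1e-06); its columns have a median of 1, with no centring across samples.

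From each sample's own channel, intensities were corrected with normexp (offset 50), normalised by loess within and Aquantile between arrays in limma 3.58.1 (R 4.3.3), and taken as log2. Outlier-flagged spots were dropped. Probes well above background in at least 4 of 8 samples (22288) with a value in all 8 (18399) were tested with lmFit and eBayes in a model of genotype and dye that took the array as a random block (correlation 0.81). Benjamini-Hochberg adjustment ran over all of them, with a threshold of 0.05. The fit was tested on simulated data. The series' own comparison within each dye is the source of the dye term. The samples are labelled as biological replicates, but only 2 arrays a genotype limit the precision. Nothing in the labels says that mice of the same replicate number are paired, so the number was not a term. Their deviations, with the dye's effect removed, correlated at −0.043, 0.182, 0.080 and 0.055 for numbers 1 to 4. Mice of different numbers were not compared, so these values cannot settle pairing.

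The members, the gene lists and the tests were chosen with earlier results of these data known. Named genes are all member probes, up to 3 genes of each pathway list by lowest unadjusted p, markers of the cell type lists and the 3 nearest patterns to Nfkbia. Of the genes that the marker rule gives, 5 are named, picked with their values in view. Astrocyte, blood, choroid plexus and heart lists were also examined, with summed levels of 38842 to 44473, 46061 to 116765, 7649 to 159270 and 1138 to 1454 in heterozygous and 25735 to 51652, 36854 to 250670, 1745 to 178742 and 1575 to 4854 in wildtype mice. Promoter and probe sequences came from RefSeq and the scanner files.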

Additional observations from a re-analysis of the deposited data

Results flagged for a closer look

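In 84 groups of 4 samples examined, 2 held a sample that stood apart from the other 3 by Dixon's test, which chance does in about 1 in 20 groups. For Relb A_51_P389751, heterozygous replicate 1 read 8.82, below the other heterozygous samples at 9.07 to 9.11. For Birc2 A_51_P254471, heterozygous replicate 3 read 10.003, above the other heterozygous samples at 9.23 to 9.34.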

How the results depend on the processing

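The count of all probes past limma's test was 0 as reported, 539 with no array block, 5 without the array of heterozygous replicates 3 and 4, 23 without that of wildtype replicates 1 and 2, 14 without that of wildtype replicates 3 and 4, and 0 to 1 when single samples were left out. With no array block 1 NF-kB probe passed, Traf2 A_55_P2092963, and 0 did in every other alternative. The replicate block, with the replicate number as a term, left 0 probes past the test and 2097 at an unadjusted p under 0.05, against 1481 without it, and changed no call. That count was 709 with processed signals, 916 with the spatial trend removed, 2860 with no filter on dim probes, 3876 with no array block and 3113 when wildtype replicates 1 and 2 were left out. With processed signals 36.1% of those probes were higher in heterozygous mice, against 47.5% as reported. The median of the NF-kB probes was −0.064 when wildtype replicates 3 and 4 were left out, and 0.112 to 0.188 when single samples were left out. Of the 12 tested NF-kB probes, 6 kept their sign in each alternative that gave them a value and 6 did not. Signs turned with processed signals for Nfkb1 A_55_P1968743 (−0.28) and Abcb1a (−0.27), and in the Cy3 samples for that Nfkb1 probe (−0.027). Without the array of heterozygous replicates 1 and 2 they turned for Rela (−0.031), Ikbkb (0.26), Nfkbid (−0.0096), Tnfrsf11a (0.29) and Pias1 (0.47). Without that of wildtype replicates 1 and 2 they turned for Nfkbid (−0.051), Tnfrsf11a (0.0020) and Brd2 A_55_P1958678 (−0.27). Without that of wildtype replicates 3 and 4 they turned for Nfkb1 A_55_P1968743 (−0.033), Relb A_51_P389751 (−0.028), Relb A_55_P2168736 (−0.095), Nfkbie (−0.11), Ltbr (−0.084), Il1rap (0.19), Pdlim2 (−0.087) and Gadd45b (−0.022). With single samples left out Nfkbid ranged from −0.092 to 0.34. Nfkbia, as a value with flagged spots kept in alternatives added after the data were seen, ranged from 0.65 to 1.09. The cause of these shifts was not tested. Only 2 arrays a genotype limit every value here. Signal over background was lower in the Cy5 samples, while heterozygous replicate 3, a Cy3 sample, had the fewest probes well above background (16398).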
